A study of Homo sapiens with 21 samples.

Results

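The RNA exosome subunits were the 10 genes EXOSC1 to EXOSC10, taken by matching the Ensembl identifiers of the count table to these symbols. All 10 were found among the 60671 genes of the table, and all 10 were among the 14012 genes that passed the filter of at least 1 CPM (counts scaled to the same library size) in at least 8 libraries. Polyadenylated RNA was sequenced from OCI-AML3, an acute myeloid leukaemia cell line grown in RPMI, and from HEK293T, an embryonic kidney line grown in DMEM. The OCI-AML3 libraries came from cells taken untreated at 0 h and from cells kept in DMSO or in tunicamycin (1 μg/mL) for 4 h or 24 h. The HEK293T libraries came from cells kept in either agent, at the same tunicamycin dose, for 24 h, and a 4 h time point of this line was not used here. Each of the 7 groups had 3 libraries. Tunicamycin stops the first step of N-linked glycosylation in the endoplasmic reticulum (ER), so that proteins misfold there and ER stress follows, and DMSO is its solvent. Each cell type is a single line, and since nothing in the sources says that replicates were separate cultures, p-values measure only the spread between these libraries.

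The exosome is the main machine that degrades RNA from its 3′ end in eukaryotic cells. It trims ribosomal and small nuclear RNA precursors, removes aberrant and unstable transcripts in the nucleus, and takes part in mRNA turnover in the cytoplasm. Its human core is a ring of proteins related to bacterial RNase PH, built from the pairs EXOSC8 with EXOSC5, EXOSC6 with EXOSC7, and EXOSC9 with EXOSC4. A cap of the RNA-binding proteins EXOSC1, EXOSC2 and EXOSC3 sits on the ring, and the ring itself is not catalytic in human cells. Degradation is done by nucleases bound to the core, among them EXOSC10 in the nucleus and DIS3, which was not counted as a subunit here.

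The depth was 13838466 to 19961798 counts per library (median 16657737), of which 8255 to 15672 fell on the 10 subunits. The treatment was visible in every library: HSPA5, the ER chaperone BiP, was higher under tunicamycin by 3.29 on the log2 scale in OCI-AML3 cells at 4 h, 3.58 at 24 h and 2.70 in HEK293T cells, and DDIT3, the stress factor CHOP, by 5.37, 4.39 and 3.69. Both lines carried their markers, with PTPRC, SPI1 and CD33 at mean levels between 55.2 and 436 CPM in OCI-AML3 groups and at most 0.151 CPM in HEK293T groups, and LIN28B and NEFM at mean levels of 106 to 135 CPM in HEK293T groups and at most 0.0659 CPM in OCI-AML3 groups. MPO, a granule enzyme often used as a myeloid marker, reached only 1.04 to 1.47 CPM in OCI-AML3 groups, and PAX2 only 1.11 to 1.39 CPM in HEK293T groups.

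The promoters of the subunits were read next to that of HSPA5, because EXOSC8 was the subunit with the highest fold change under tunicamycin in OCI-AML3 cells at 4 h and in HEK293T cells. The sequences below are the 250 bases before the transcription start in RefSeq on GRCh38.p14, at chr13:37000536-37000785 on the plus strand for EXOSC8 and at chr9:125241344-125241593 on the minus strand for HSPA5, 5′ to 3′. Capitals mark an ER stress response element (ERSE), which is bound by ATF6 with NF-Y.
EXOSC8: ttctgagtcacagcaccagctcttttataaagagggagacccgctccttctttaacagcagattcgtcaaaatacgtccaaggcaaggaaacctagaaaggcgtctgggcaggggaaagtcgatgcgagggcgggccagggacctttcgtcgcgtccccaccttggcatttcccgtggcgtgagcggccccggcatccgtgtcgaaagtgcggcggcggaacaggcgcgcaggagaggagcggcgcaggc
HSPA5: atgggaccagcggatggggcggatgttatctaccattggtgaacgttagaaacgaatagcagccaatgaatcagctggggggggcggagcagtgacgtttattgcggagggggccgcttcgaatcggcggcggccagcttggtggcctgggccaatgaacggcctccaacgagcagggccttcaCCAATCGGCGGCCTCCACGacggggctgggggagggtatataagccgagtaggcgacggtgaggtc
Both strands of the window from 250 bases before to 50 bases after the start were searched for 5 motifs. They were ERSE (CCAAT and CCACG with 9 bases between them, in 0.0769% of 35116 human promoters of this length), ERSE-II (ATTGG and CCACG with 1 base between them, 0.0541%), the unfolded protein response element UPRE (TGACGTGG, 0.729%), an ATF4 element (TGATGCAA, 0.866%) and the cyclic AMP response element CRE (TGACGTCA, 1.85%). Motifs share some letters (TGACG stands in both UPRE and CRE), and each was counted separately. HSPA5 held 1 ERSE, beginning 66 bases before the start (position -66). RefSeq promoters were found for EXOSC2, EXOSC3 and EXOSC5 to EXOSC10, and none of them held any of these letters. Neither did the promoters of DDIT3, which was strongly higher under tunicamycin, or of ALG5, a gene next to EXOSC8, so nothing about the response of a gene is read from the absence of these letters.

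EXOSC8, a ring subunit, was the member of the complex with the highest fold changes under tunicamycin in OCI-AML3 cells at 4 h and in HEK293T cells at 24 h. The subunits were chosen by their tunicamycin fold changes, on which EXOSC8 had been set apart from the others. Values from these 3 comparisons are therefore a description, without a test of any single subunit. In OCI-AML3 cells its level was 54.6, 43 and 48.4 CPM with DMSO at 4 h and 78.4, 86.2 and 86.4 CPM with tunicamycin. All 3 treated libraries lay above all 3 controls, and the means of 83.7 ± 4.56 and 48.7 ± 5.79 CPM (SD, n = 3) differed 1.72-fold, by 0.78 on the log2 scale (SE 0.08). In bulk RNA, a rise in each cell and a rise in some of the cells cannot be told apart.

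At 24 h the OCI-AML3 groups overlapped for EXOSC8. The levels were 44.8, 44.1 and 46.1 CPM after DMSO and 40.5, 46.5 and 45.6 CPM after tunicamycin, a log2 fold change of -0.02 (SE 0.09). HEK293T cells at the same time had 58.9, 56 and 57.7 CPM after DMSO and 83.8, 79.1 and 87.7 CPM after tunicamycin. The HEK293T groups did not overlap, and the difference was 1.45-fold (log2 fold change 0.54, SE 0.08). The log2 fold change in OCI-AML3 cells at 24 h minus that at 4 h was -0.81, and at 24 h that in HEK293T cells minus that in OCI-AML3 cells was 0.56. These differences rest on the comparisons that singled out EXOSC8 and were not tested.

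Ordered by mean level, EXOSC8 stood highest in OCI-AML3 cells with tunicamycin for 4 h (83.7 CPM) and in HEK293T cells with tunicamycin (83.6 CPM), which overlapped. HEK293T cells with DMSO followed at 57.5 ± 1.45 CPM, apart from both. Untreated OCI-AML3 cells (50.2 ± 4.81 CPM), DMSO at 4 h, DMSO at 24 h (45.0 ± 1.05 CPM) and tunicamycin at 24 h (44.2 ± 3.24 CPM) came last, and each of these overlapped the next. Among all 14012 genes tested, 5.47% had a higher log2 fold change than EXOSC8 in OCI-AML3 cells at 4 h, 55.8% at 24 h and 7.49% in HEK293T cells. Its values thus lay in the upper part of the distribution at 4 h and in HEK293T cells, and near the middle at 24 h in OCI-AML3 cells.

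**Figure D1:**
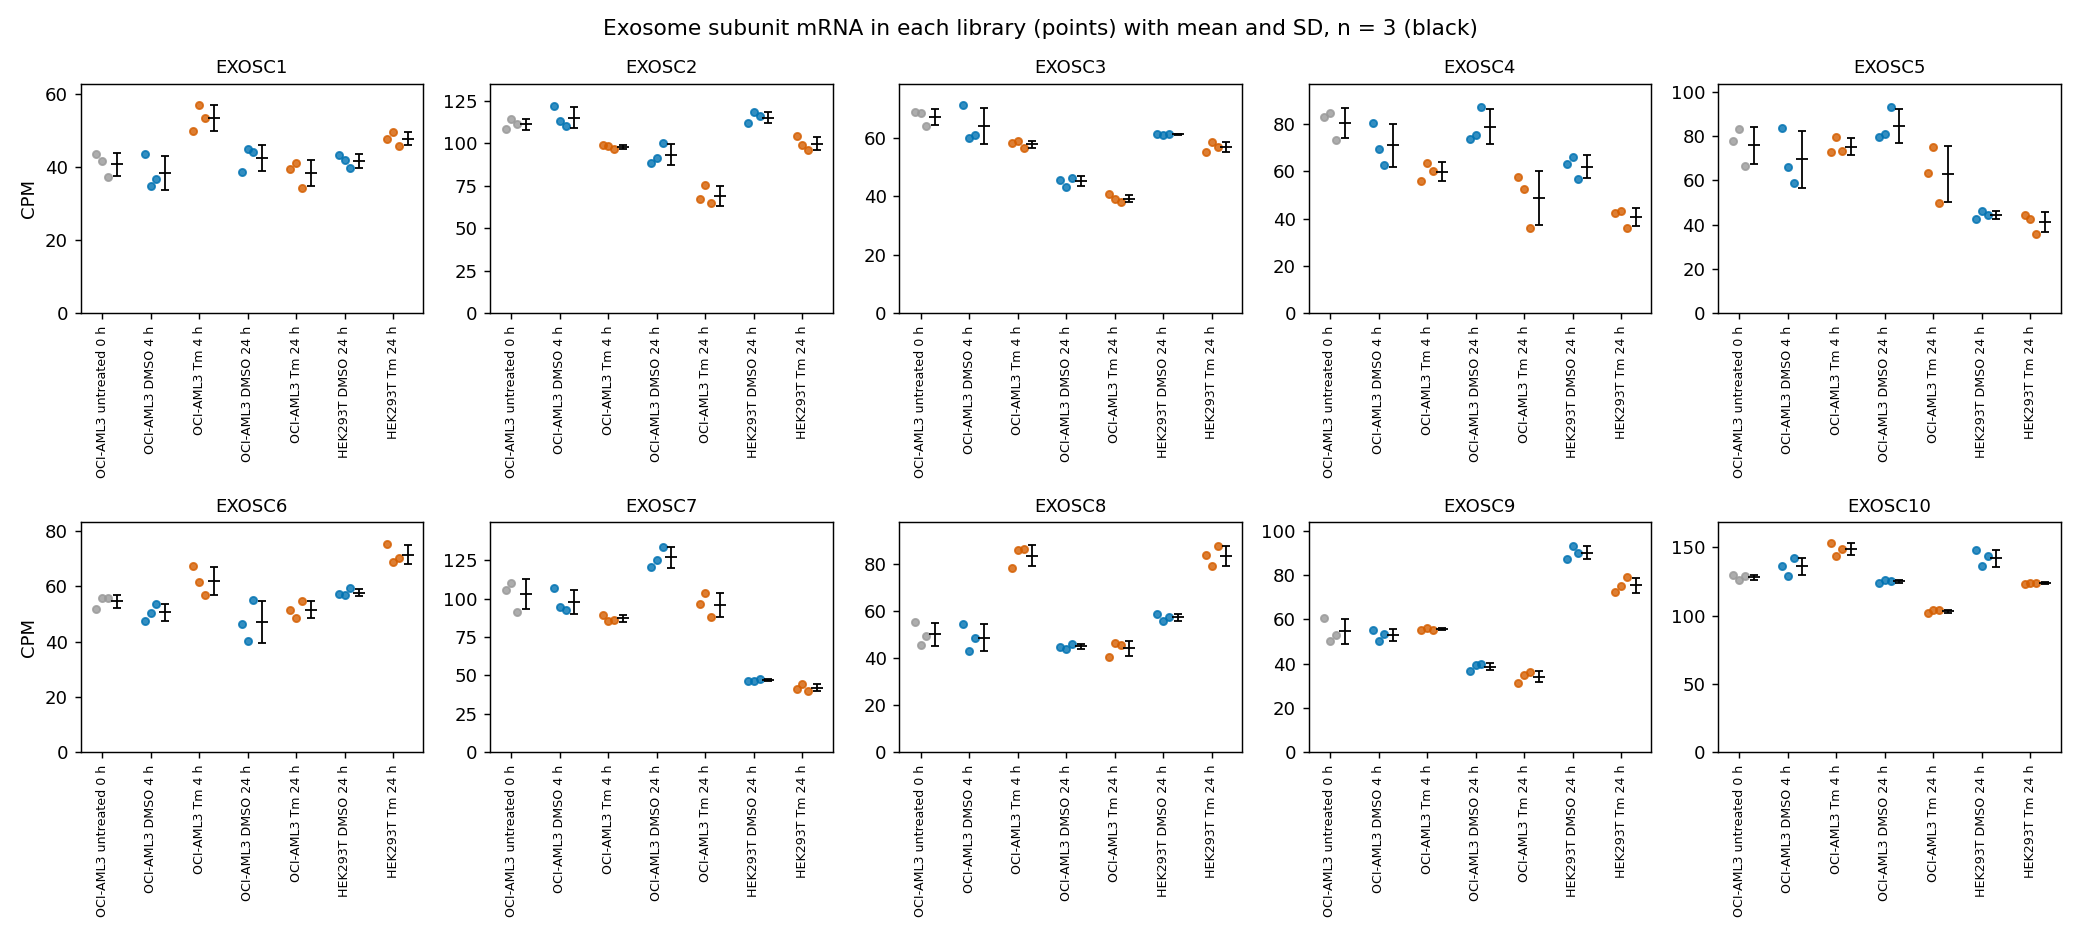
Level of each exosome subunit in CPM (linear axis from 0) in each library of the 7 groups, with 1 point per library (grey untreated, blue DMSO, orange tunicamycin, written Tm) and the mean with its SD (n = 3) in black. EXOSC8 is near 84 CPM in OCI-AML3 cells with tunicamycin for 4 h and in HEK293T cells with tunicamycin, whereas EXOSC7 and EXOSC9 differ most between the cell lines.

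Because counts of the 10 subunits are read in the same library, the share of EXOSC8 among them does not depend on how libraries are scaled. This share was 6.53% ± 0.421 (SD, n = 3) with DMSO at 4 h and 10.7% ± 0.573 with tunicamycin. It was 8% ± 0.212 in HEK293T cells with DMSO and 12.3% ± 0.748 with tunicamycin. In OCI-AML3 cells at 24 h it was 6.20% ± 0.215 with DMSO and 7.55% ± 0.704 with tunicamycin, with the libraries at 5.98 to 6.41% and 6.87 to 8.28%. The share at 24 h thus lay higher under tunicamycin although the level of EXOSC8 itself overlapped, since the summed level of the other subunits was 543 ± 34.4 CPM with tunicamycin against 682 ± 38.0 CPM with DMSO. At 4 h the summed level of the other subunits was 698 ± 9.18 CPM with tunicamycin and 695 ± 44.8 CPM with DMSO. The DMSO sum rests on replicate 1, at 747 CPM against 668 and 670 CPM, and single subunits among them differed in opposite directions.

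**Figure D2:**
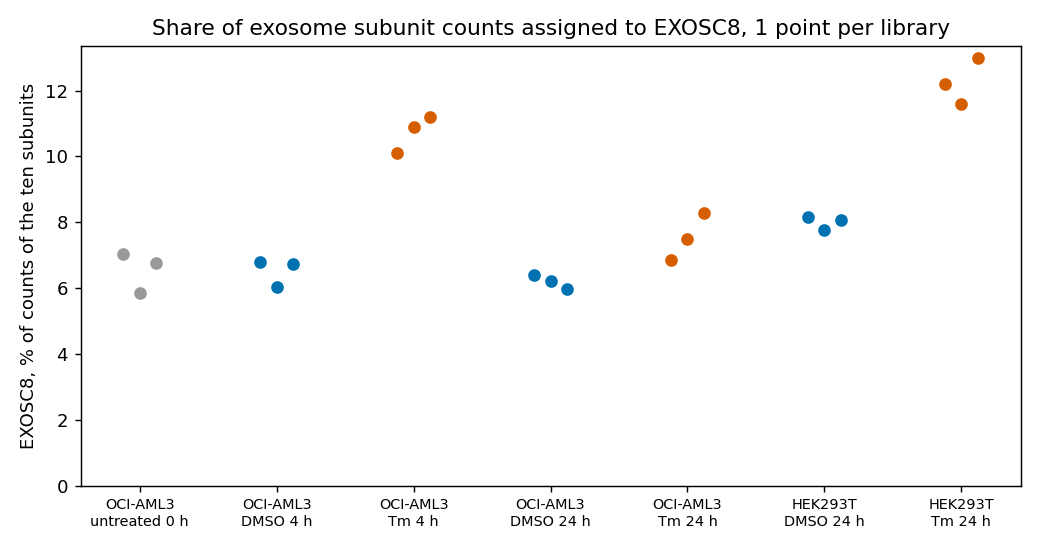
Counts of EXOSC8 as a percentage of the counts of all 10 exosome subunits (linear axis from 0), 1 point per library, in the 7 groups (grey untreated, blue DMSO, orange tunicamycin, written Tm). The tunicamycin libraries are higher than their DMSO controls in each of the 3 pairs of groups, with mean shares of 10.7, 7.55 and 12.3% against 6.53, 6.20 and 8%.

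The partner of EXOSC8 in the ring, EXOSC5, did not share this pattern. In OCI-AML3 cells at 4 h it was at 83.9, 66.1 and 58.8 CPM with DMSO and 72.9, 79.8 and 73.2 CPM with tunicamycin, overlapping (log2 fold change 0.12, SE 0.13). At 24 h it was at 79.7, 80.8 and 93.2 CPM with DMSO and 63.3, 75.1 and 50.0 CPM with tunicamycin, all lower (-0.43, SE 0.13). In HEK293T cells the groups overlapped (-0.11, SE 0.13). Values within its OCI-AML3 groups were spread more widely than those of most subunits, with an SD of up to 12.9 CPM.

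The ring pair EXOSC6 and EXOSC7 had opposite signs in all 3 comparisons. EXOSC6 was at 47.6, 50.5 and 53.8 CPM with DMSO and 67.3, 61.8 and 57.0 CPM with tunicamycin at 4 h in OCI-AML3 cells. No library of either group reached into the other, and the log2 fold change was 0.29 (SE 0.09). In HEK293T cells EXOSC6 was at 57.4, 56.8 and 59.3 CPM with DMSO and 75.3, 68.8 and 70.3 CPM with tunicamycin, again all higher (0.31, SE 0.09), and at 24 h in OCI-AML3 cells the groups overlapped (0.13, SE 0.09). EXOSC7 was lower in every tunicamycin library than in its controls in all 3 comparisons, by 0.17 at 4 h (SE 0.08), 0.40 at 24 h (SE 0.08) and 0.17 in HEK293T cells (SE 0.08) on the log2 scale, with log2 fold changes of -0.17, -0.40 and -0.17.

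The remaining ring pair, EXOSC9 and EXOSC4, was lower or overlapping. EXOSC4 had the lowest fold changes of the complex: at 24 h in OCI-AML3 cells it was at 73.8, 75.3 and 87.3 CPM with DMSO and 57.5, 52.7 and 35.9 CPM with tunicamycin (log2 fold change -0.70, SE 0.13). In HEK293T cells it was at 63.2, 66.2 and 56.6 CPM with DMSO and 42.3, 43.4 and 36.1 CPM with tunicamycin (-0.61, SE 0.13). Neither of these pairs of groups overlapped, whereas at 4 h they did (-0.24, SE 0.13). Tunicamycin 24 h replicate 3 of OCI-AML3 had the lowest value of its group for both EXOSC4 and EXOSC5, and its TMM factor was 0.984 against 0.917 and 0.913. Without it the values at 24 h were -0.51 for EXOSC4 and -0.29 for EXOSC5. EXOSC9 overlapped at 4 h (0.07, SE 0.07) and was lower in all tunicamycin libraries at 24 h in OCI-AML3 cells (-0.18, SE 0.08) and in HEK293T cells (-0.26, SE 0.07).

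Of the cap, EXOSC1 was higher at 4 h in OCI-AML3 cells and in HEK293T cells, where EXOSC2 and EXOSC3 were lower, and all 3 had negative values at 24 h in OCI-AML3 cells. EXOSC1 was at 43.5, 34.7 and 36.7 CPM with DMSO and 49.8, 56.9 and 53.3 CPM with tunicamycin at 4 h in OCI-AML3 cells, all higher (log2 fold change 0.48, SE 0.09). At 24 h its groups overlapped (-0.16, SE 0.09), and in HEK293T cells it was all higher by a smaller amount (0.19, SE 0.09). EXOSC2 was lower in all treated libraries in each comparison, with log2 fold changes of -0.23, -0.44 and -0.21, as was EXOSC3 with -0.14, -0.20 and -0.11. Without DMSO 4 h replicate 1, the values at 4 h were -0.06 for EXOSC3, -0.10 for EXOSC7, -0.14 for EXOSC4 and 0.27 for EXOSC5.

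EXOSC10, the nuclear exonuclease, was at 136, 129 and 142 CPM with DMSO and 153, 144 and 149 CPM with tunicamycin at 4 h in OCI-AML3 cells, all higher but by only 0.13 on the log2 scale (SE 0.05). At 24 h it was at 124, 126 and 125 CPM with DMSO and 102, 104 and 104 CPM with tunicamycin, all lower (-0.28, SE 0.05). HEK293T cells also had lower values with tunicamycin, at 123, 124 and 124 CPM against 148, 136 and 144 CPM with DMSO (-0.20, SE 0.05).

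Counted over the 10 subunits, 3 were higher and 1 was lower at an adjusted p of at most 0.05 in OCI-AML3 cells at 4 h. Of all genes tested 37.3% were called there (19% higher, 18.4% lower). At 24 h 0 were higher and 6 were lower, beside 51.1% of all genes (27.2% higher, 23.9% lower). In HEK293T cells 2 were higher and 4 lower, beside 25.7% (12.7% higher, 13% lower). None passed both this threshold and a log2 fold change past 1, as 4.96, 6.54 and 2.13% of all genes did. Libraries did not overlap for 7 subunits at 4 h (4 higher, 3 lower), 7 at 24 h (all lower) and 9 in HEK293T cells (3 higher, 6 lower), beside 46.2, 53 and 49.1% of all genes (23.4% higher and 22.8% lower, 28.9% and 24.1%, and 23.5% and 25.6%). The median log2 fold change of the 10 was 0.09, -0.24 and -0.14, against -0.01, 0.05 and -0.01 over all genes. Since EXOSC8 was singled out on these comparisons, nothing is read from these counts.

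**Figure D3:**
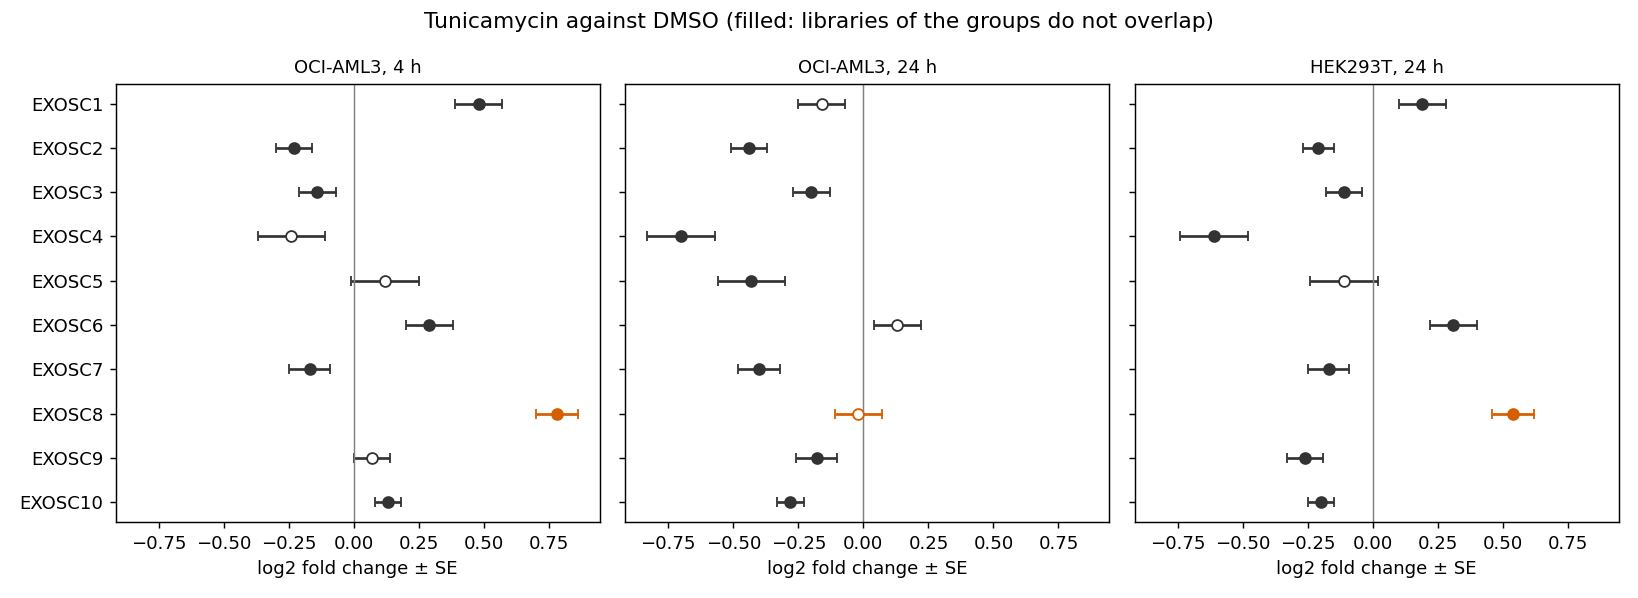
Log2 fold change of each exosome subunit, tunicamycin against DMSO, with its standard error (bars), for OCI-AML3 at either time and for HEK293T at 24 h (3 libraries per group), with filled points where the libraries of the groups do not overlap and EXOSC8 in orange. EXOSC8 lies farthest to the right at 4 h (0.78) and in HEK293T cells (0.54) and at -0.02 at 24 h in OCI-AML3 cells, where EXOSC4 lies farthest to the left (-0.70).

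The gene neighbourhood bears on how the EXOSC8 counts are read. EXOSC8 lies on the plus strand at chr13:36998816-37025881 (GRCh38), and 2138 bases of its annotated exons (16.3%) are also exons of SUPT20H on the minus strand. SUPT20H encodes a subunit of the SAGA coactivator complex. Whether the counting used the strand is not given in the sources used here, and without it reads from the shared bases cannot be told apart. In the edgeR quasi-likelihood test SUPT20H was also higher at 4 h in OCI-AML3 cells, at 68.2, 62.7 and 70.6 CPM against 47.1, 43.4 and 47.8 CPM (log2 fold change 0.54, adjusted p = 4.1e-06). In HEK293T cells, where EXOSC8 was higher by 0.54, SUPT20H was at 48.2, 49.1 and 45.4 CPM with tunicamycin and 53.3, 53.5 and 51.1 CPM with DMSO, a log2 fold change of -0.14 that did not pass the test (adjusted p = 0.16). At 24 h in OCI-AML3 cells it was -0.07 (adjusted p = 0.49). The part of shared reads in the EXOSC8 values was not tested.

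The span of EXOSC8 also overlaps that of ALG5 on the minus strand at chr13:36949738-37000763, without shared exon bases. ALG5 makes the glucose donor used to build N-linked glycans in the ER, and it was added after its values had been seen, because its canonical start, 1446 bases from that of EXOSC8, was outside the window of 1000 bases set for head-to-head neighbours. ALG5 rose in all 3 comparisons: from 33.3 to 50.7 CPM at 4 h (log2 fold change 0.61, adjusted p = 7e-05), from 28.4 to 69.2 CPM at 24 h (1.29, adjusted p = 1.6e-09) and from 34.2 to 60.9 CPM in HEK293T cells (0.83, adjusted p = 1.8e-06). At 24 h in OCI-AML3 cells, where ALG5 had its largest fold change of the 3, EXOSC8 overlapped its controls.

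**Figure D4:**
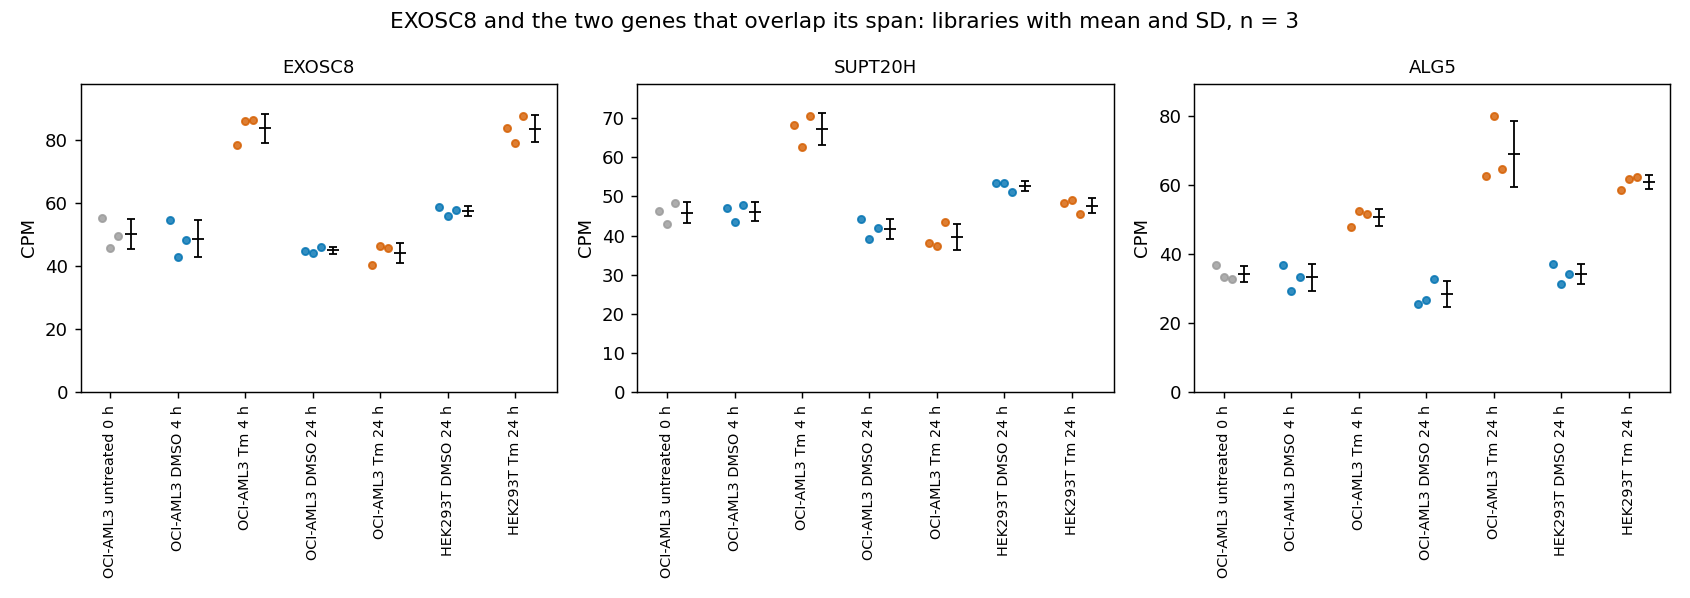
Levels of EXOSC8 and of SUPT20H and ALG5, whose spans overlap it on the opposite strand, in CPM (linear axis from 0) in each library, with the mean and SD (n = 3) in black (grey untreated, blue DMSO, orange tunicamycin, written Tm). SUPT20H is higher with tunicamycin at 4 h (67.2 against 46.1 CPM) but not in HEK293T cells, and ALG5 is higher in all 3 comparisons.

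Head-to-head partners within 1000 bases were found for EXOSC1 (ZDHHC16), EXOSC5 (BCKDHA), EXOSC7 (ZDHHC3), EXOSC4 (the long noncoding RNA ENSG00000255224) and EXOSC10 (EXOSC10-AS1, too low to be tested). BCKDHA, an enzyme of branched-chain amino acid breakdown, rose at 4 h (121 to 147 CPM, log2 fold change 0.28, adjusted p = 0.021) and fell at 24 h in OCI-AML3 cells (206 to 158 CPM, -0.38, adjusted p = 0.0015). The call at 4 h was lost without DMSO 4 h replicate 2 or 3 or tunicamycin 4 h replicate 2 (adjusted p = 0.053, 0.081 and 0.12). It did not pass in HEK293T cells (0.21, adjusted p = 0.13). ZDHHC16 and ZDHHC3, both protein palmitoyltransferases, and ENSG00000255224 passed in none of the 3 comparisons, with log2 fold changes between -0.53 and 0.17. Under alternatives some calls were gained, given here with the log2 fold change at the lowest adjusted p. ZDHHC16 gained the call at 24 h in OCI-AML3 cells in 5 of 29 (-0.22, adjusted p = 0.037). ZDHHC3 gained it in HEK293T cells in 3 (-0.19, adjusted p = 0.014). ENSG00000255224 gained it at 4 h in 3 (-0.69, adjusted p = 0.032), and BCKDHA in HEK293T cells in 1 (0.22, adjusted p = 0.008). The exons of EXOSC4 share 61.7% of their bases with other genes, those of EXOSC10 39.1%, EXOSC7 13.6%, EXOSC3 9.27% and EXOSC9 5.39%. The bases of EXOSC9 and EXOSC10, like those of EXOSC8, are shared with genes on the opposite strand, whereas those of EXOSC7 are shared with CLEC3B on the same strand, where counting by strand would not separate the reads. Most of those of EXOSC4 (786) are shared with ENSG00000290230, also on the same strand, which has no row in the table used here. The gene that shares bases with EXOSC9 is CCNA2, cyclin A. It fell in all 3 comparisons (log2 fold changes -0.41, -0.86 and -0.40, adjusted p = 6.9e-06, 9e-11 and 1.7e-05), beside 0.07, -0.18 and -0.26 for EXOSC9. EXOSC3 shares 452 bases with TRMT10B on the opposite strand. TRMT10B rose (0.59, 0.74 and 0.49, past the threshold under all 29 alternatives), beside -0.14, -0.20 and -0.11 for EXOSC3. DCAF10, which shares 53 bases with EXOSC3, was at 0.20, 0.09 and 0.42. The part of shared reads was not tested for EXOSC9 or EXOSC3.

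Tests of single subunits are reported only for comparisons without tunicamycin. The DMSO libraries in them are also the controls of the tunicamycin comparisons that singled out EXOSC8, so these tests are not fully independent of that choice. DMSO at 4 h against untreated cells at 0 h gave 0 of 10 subunits at an adjusted p of at most 0.05 in edgeR, where 0% of all genes were called. By adjusted p, limma voom also called 0 genes and DESeq2 called 8 higher and 8 lower, with 0 subunits. At an unadjusted p under 0.05 edgeR counted 1158 of the 14012 genes, limma voom 1183 and DESeq2 1130, with 0 of the 10 subunits in each. With genes kept at any count edgeR called 56 genes higher and 39 lower, with 0 subunits, and 1 subunit had an unadjusted p under 0.05. Log2 fold changes of the subunits ran from -0.18 for EXOSC4 to 0.08 for EXOSC10, and the libraries of all 10 overlapped, whereas those of 10.6% of all genes did not (6.04% higher, 4.52% lower). Solvent and time cannot be told apart in this comparison.

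Between 4 h and 24 h in DMSO, 1 subunit rose and 3 fell in OCI-AML3 cells by edgeR's quasi-likelihood test, beside 42.6% of all genes called (20.9% higher, 21.7% lower). No subunit also had a log2 fold change past 1, as 4.15% of all genes did. EXOSC3, a cap protein, fell from 71.2, 60.0 and 61.0 CPM to 45.7, 43.3 and 46.5 CPM (log2 fold change -0.50, SE 0.07, adjusted p = 3.7e-06). EXOSC9 fell from 55.3, 50.2 and 53.2 CPM to 36.8, 39.3 and 39.6 CPM (-0.45, SE 0.08, adjusted p = 5.1e-05). The cap protein EXOSC2 fell by less (-0.30, SE 0.07, adjusted p = 9e-04). EXOSC7 rose from 107, 94.6 and 92.6 CPM to 121, 125 and 134 CPM (0.37, SE 0.08, adjusted p = 0.00053). Groups did not overlap for any of these 4 genes, nor for EXOSC10, beside 45.6% of all genes (22.6% higher, 23% lower).

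EXOSC8 did not pass between these times, and its libraries overlapped (log2 fold change -0.11, SE 0.09, adjusted p = 0.30). EXOSC5 was near the threshold at 0.28 (adjusted p = 0.079), and it passed without DMSO 4 h replicate 1 (0.44, adjusted p = 0.0071). EXOSC1 (0.15, adjusted p = 0.20) also passed without that library (0.25, adjusted p = 0.034). EXOSC6 was at -0.10 (adjusted p = 0.38), and passed without DMSO 24 h replicate 3 (-0.23, adjusted p = 0.044). EXOSC10 (-0.11, adjusted p = 0.085) passed without DMSO 4 h replicate 2 (-0.15, adjusted p = 0.048). With library sizes alone the median of all genes was -0.14 and 2129 genes were higher and 4610 lower, against 2929 and 3041 after TMM scaling. Under that scaling EXOSC8 (adjusted p = 0.033) and EXOSC10 (adjusted p = 0.0016), both at -0.23, also passed.

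The cell lines differed most in single subunits. HEK293T against OCI-AML3 cells, both with DMSO for 24 h, gave 6 subunits higher and 3 lower by the same test, beside 83.2% of all genes called (41.9% higher, 41.3% lower), so that a count of 9 is near the background. The same 9 did not overlap between the lines, beside 85% of all genes (43% higher, 42% lower). EXOSC7 was at 46.5, 46.6 and 47.6 CPM in HEK293T cells and 121, 125 and 134 CPM in OCI-AML3 cells, 2.70-fold lower (log2 fold change -1.43, SE 0.08, adjusted p = 6e-14). EXOSC9 was at 87.2, 93.1 and 90 CPM in HEK293T cells and 36.8, 39.3 and 39.6 CPM in OCI-AML3 cells, 2.34-fold higher (1.22, SE 0.07, adjusted p = 3.9e-13). Only these 2 members passed a log2 fold change of 1, beside 45.4% of all genes. EXOSC5 was at 42.7, 46.1 and 44.4 CPM in HEK293T cells against 79.7, 80.8 and 93.2 CPM (-0.93, SE 0.13, adjusted p = 6.5e-07).

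EXOSC8 was higher in HEK293T than in OCI-AML3 cells, at 57.5 against 45.0 CPM (log2 fold change 0.35, SE 0.08, adjusted p = 0.00055). The cap proteins EXOSC3 (0.44, adjusted p = 2.5e-06) and EXOSC2 (0.30, adjusted p = 0.00018), EXOSC6 (0.30, adjusted p = 0.0046) and EXOSC10 (0.19, adjusted p = 0.0026) were higher as well, and EXOSC4 was lower (-0.35, adjusted p = 0.015). EXOSC1 did not pass (-0.03, adjusted p = 0.78). Library sizes alone moved the median of all genes to 0.28, and when genes were kept at any count EXOSC2, EXOSC6, EXOSC8 and EXOSC10 no longer passed (0.09, 0.08, 0.14 and -0.03). EXOSC10 failed to pass in 4 of the 29 alternatives in all. EXOSC4 did not pass with library sizes alone (-0.09), without DMSO 24 h replicate 3 of OCI-AML3 (-0.27, adjusted p = 0.081) or without that of HEK293T (-0.31, adjusted p = 0.056), and EXOSC6 did not pass without DMSO 24 h replicate 2 of OCI-AML3 (0.19, adjusted p = 0.055). Cell line and medium cannot be told apart.

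**Figure D5:**
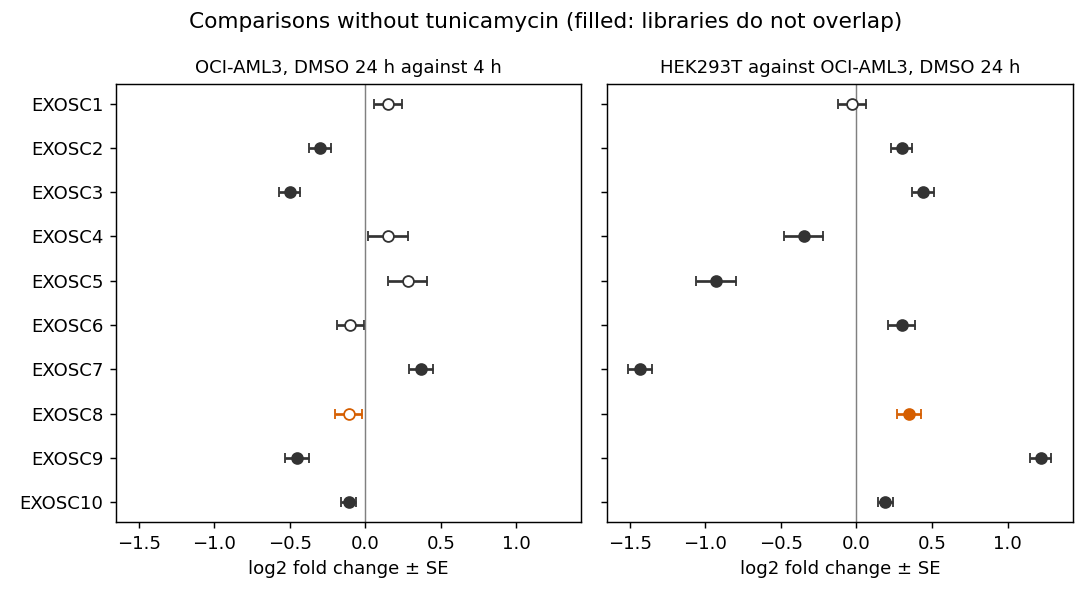
Log2 fold change with its standard error (bars) for each exosome subunit in DMSO at 24 h against 4 h in OCI-AML3 cells, and in HEK293T against OCI-AML3 cells with DMSO for 24 h (3 libraries per group), with filled points where the libraries do not overlap and EXOSC8 in orange. EXOSC7 at -1.43 and EXOSC9 at 1.22 lie farthest from 0 between the cell lines, whereas all subunits lie between -0.50 and 0.37 between the times.

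Levels of different subunits can be compared only per length, and the order then depended on the length used. With the union of annotated exons, EXOSC4 was highest with DMSO at 4 h in OCI-AML3 cells, at 190 ± 15.5 TPM (counts per length, scaled to the same total in each library, n = 3), and EXOSC8 lowest at 13.8 ± 1.03 TPM over 13092 bases. With the canonical transcript, a choice added after the values were seen, EXOSC8 had 1166 bases and 81.8 ± 5.05 TPM, which ranked 6 of 10, and EXOSC7 was highest at 185 ± 2.49 TPM. With the longest annotated transcript EXOSC8 ranked 9 of 10. No order of the subunits is read from these values.

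Over the 21 libraries the genes most like EXOSC8 in log2 CPM were MTFR1 (Pearson r = 0.946), RIPK2 (0.945), TSTD2 (0.938), MED8 (0.933) and the small nucleolar RNA host gene SNHG1 (0.931). The libraries share 7 groups, so these values mostly describe group means, and they are given without a test. The list depended on the measure: 1 of the 5 (RIPK2) was also among the first 5 by Spearman's rho, and 1 (SNHG1) over the 15 OCI-AML3 libraries. MTFR1 had log2 fold changes of 0.63, 0.10 and 0.55 in the 3 tunicamycin comparisons, beside 0.78, -0.02 and 0.54 for EXOSC8. Of the other subunits EXOSC1 (r = 0.80) and EXOSC6 (0.78) were closest to EXOSC8, and EXOSC7 was the most distant (-0.61). By Spearman's rho EXOSC6 was the closest subunit (0.83). ALG5 had an r of 0.443.

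Beyond the core, 40 genes of the nucleases, cofactors and adaptors that work with the exosome and of other decay pathways were tested, and all 40 passed the filter. At 4 h in OCI-AML3 cells 10 rose and 4 fell, beside 19% and 18.4% of all genes, and their median log2 fold change was 0.08 against -0.01 over all genes. At 24 h 10 rose and 11 fell, beside 27.2% and 23.9% (median 0.01 against 0.05). In HEK293T cells 5 rose and 6 fell, beside 12.7% and 13% (median 0.01 against -0.01). These lists were written with results of the study known.

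Of the 4 nucleases and bound cofactors, DIS3, the main exosome nuclease, passed in no tunicamycin comparison, at 71.2 and 75.5 CPM without and with tunicamycin at 4 h (log2 fold change 0.08, adjusted p = 0.53), at 0.15 at 24 h (adjusted p = 0.21) and at -0.06 in HEK293T cells (adjusted p = 0.66). DIS3L, its cytoplasmic counterpart, rose in HEK293T cells (0.35, adjusted p = 0.0016). C1D, a partner of EXOSC10, fell in HEK293T cells (-0.50, adjusted p = 0.00015) and at 4 h in OCI-AML3 cells (-0.23, adjusted p = 0.041). The latter call was lost in 8 of 29 alternatives (adjusted p up to 0.12). MPHOSPH6, which joins the core to its nuclear helicase MTREX, fell at 24 h in OCI-AML3 cells (-0.47, adjusted p = 0.00089).

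Among 9 nuclear adaptor genes 3 rose and 2 fell at 4 h, beside 19% and 18.4% of all genes. ZCCHC8, the scaffold of the NEXT complex that brings unstable nuclear RNA to the exosome, rose from 29.4, 33.1 and 36.6 CPM to 80.6, 76.8 and 78.8 CPM (log2 fold change 1.25, adjusted p = 4.3e-11), more than any other gene of these lists. It rose by less at 24 h (0.43, adjusted p = 0.00031) and in HEK293T cells (0.26, adjusted p = 0.023). ZCCHC7, of the TRAMP complex, rose in all 3 comparisons (0.85, 0.40 and 0.43, adjusted p = 3.6e-07, 0.0019 and 0.0028). RBM7, of NEXT, rose in OCI-AML3 cells at 4 h (0.39, adjusted p = 0.00025) and 24 h (0.34, adjusted p = 0.0012). The call of RBM7 at 24 h was lost with genes kept at any count (0.26, adjusted p = 0.06). TENT4B, the poly(A) polymerase of TRAMP, rose at 24 h in OCI-AML3 cells (0.42, adjusted p = 0.019), although its libraries overlapped and the call was lost without DMSO 24 h replicate 2 or 3 or tunicamycin 24 h replicate 3 (adjusted p = 0.053, 0.10 and 0.24). ZFC3H1, of the complex that targets polyadenylated nuclear RNA, fell at 4 h (-0.67, adjusted p = 0.0012), as did PABPN1, the nuclear poly(A)-binding protein (-0.29, adjusted p = 0.00018). At 24 h 4 of the 9 rose and 3 fell, beside 27.2% and 23.9% of all genes. Those that fell were ZC3H18 (-0.32, adjusted p = 0.0029), PABPN1 (-0.22, adjusted p = 0.0015) and SRRT (-0.19, adjusted p = 0.020). In HEK293T cells 2 rose and 2 fell, beside 12.7% and 13% of all genes, the latter SRRT (-0.38, adjusted p = 0.00016) and ZC3H18 (-0.23, adjusted p = 0.040), which link the cap of nuclear RNA to decay. The calls of ZCCHC8 and ZC3H18 in HEK293T cells were each lost without any of 5 of the 6 libraries compared, and that of SRRT at 24 h in OCI-AML3 cells without any of 3 (adjusted p up to 0.088, 0.20 and 0.083). The ZCCHC8 call was also lost with library sizes alone (adjusted p = 0.068) and with genes kept at any count (adjusted p = 0.097). With the compared groups alone, TENT4B (adjusted p = 0.11) and SRRT (adjusted p = 0.068) did not pass at 24 h in OCI-AML3 cells. With genes kept at any count TENT4B did not pass there either (adjusted p = 0.059).

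The SKI complex feeds mRNA to the cytoplasmic exosome, and of its genes and HBS1L, 4 in all, none rose and 1, 2 and 1 fell in the 3 comparisons, beside 18.4, 23.9 and 13% of all genes that fell. HBS1L fell at 4 h (-0.30, adjusted p = 0.0056), SKIC8 (-0.57, adjusted p = 0.00016) and the helicase SKIC2 (-0.17, adjusted p = 0.038) at 24 h in OCI-AML3 cells, and SKIC2 in HEK293T cells (-0.29, adjusted p = 0.0028). HBS1L did not pass without DMSO 4 h replicate 3 (adjusted p = 0.051), nor SKIC2 at 24 h in OCI-AML3 cells without any of 4 libraries (adjusted p up to 0.14). SKIC2 also failed to pass there with library sizes alone (adjusted p = 0.082) and with the compared groups alone (adjusted p = 0.11). Of 23 genes of deadenylation, decapping and other exonucleases, 7 rose and 0 fell at 4 h, beside 19% and 18.4% of all genes. The first were CNOT3 of the CCR4-NOT deadenylase (1.10, adjusted p = 6.9e-09), DCP1A of the decapping complex (0.65, adjusted p = 1.6e-08), CNOT4 (0.51, adjusted p = 1.7e-05) and CNOT10 (0.48, adjusted p = 2.1e-05). At 24 h 6 rose and 5 fell, beside 27.2% and 23.9%. Those that rose were led by PAN3 of the PAN2-PAN3 deadenylase (0.79, adjusted p = 3.5e-07), the deadenylase CNOT6L (0.52, adjusted p = 0.00031), the 5′ exonuclease XRN1 (0.41, adjusted p = 0.044) and PAN2 (0.40, adjusted p = 0.00031). The call of XRN1 was lost in 16 of 29 alternatives (adjusted p up to 0.27). Those that fell were led by EDC4 (-0.35, adjusted p = 0.00084) and CNOT9 (-0.32, adjusted p = 0.00013). EDC3 (-0.25, adjusted p = 0.013) and DIS3L2 (-0.21, adjusted p = 0.034) passed too, and lost the call in 2 and 8 of 29 alternatives (adjusted p up to 0.10 and 0.098). In HEK293T cells 2 rose and 2 fell, beside 12.7% and 13%. PAN2 (0.71, adjusted p = 5.3e-07) and CNOT6L (0.38, adjusted p = 0.0079) rose, and the decapping enhancers EDC4 (-0.43, adjusted p = 2e-04) and EDC3 (-0.25, adjusted p = 0.022) fell. CNOT6L did not pass there without DMSO replicate 1 (adjusted p = 0.057), nor EDC3 without any of 3 libraries (adjusted p up to 0.078).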

How the data were processed

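RNA libraries were poly(A)-selected and read from both ends. According to the submitters' notes and the study's methods, reads were trimmed (seqtk), mapped to GRCh38 (STAR) and quantified per Ensembl gene (RSEM). The authors deposited RSEM expected counts of 60671 genes, unscaled and unfiltered. Over all 60671 genes, those without reads included, between 3.54 and 4.22% of each library's values were not whole. The share among genes with reads was not computed. Such values arise since RSEM divides reads that fit several genes, and genes with shared exons are therefore less certain. Whether counting used the strand is not given in the sources used here. All 21 columns were matched to a sample by title. Expected counts were rounded, scaled by TMM (factors 0.913 to 1.11), and tested with edgeR's quasi-likelihood method (edgeR 4.0.16 in R 4.3.3), 1 mean being fitted per group over all 7 groups. A gene needed 1 CPM in 8 libraries to enter, which left 14012, and p-values were adjusted by Benjamini-Hochberg over all of these, with a threshold of 0.05. The SE was obtained as |log2 fold change|/√F. CPM used TMM-scaled library sizes.

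The subunits, the gene lists and the motifs were chosen with earlier results of these data known. Because EXOSC8 was set apart on the tunicamycin comparisons, counts of subunits past the threshold and fold changes in those comparisons are descriptions, with no p-value for a subunit, and tests of the subunits are reported for DMSO at 4 h against untreated cells, DMSO at 24 h against 4 h, and HEK293T against OCI-AML3 cells. The genes named are the 10 subunits, at most the 4 genes farthest from 0 in each direction for each list and comparison among those past the threshold, the head-to-head neighbours, the 5 genes most like EXOSC8, the genes that overlap a subunit where a limit concerns them, the marker genes of both lines, and HSPA5 and DDIT3. ALG5 was added after its values had been seen. Replicates were compared in 21 pairs, and 0 held identical values. Libraries held 13838466 to 19961798 counts, and a count of 0 allows up to 3 counts, 0.137 to 0.225 CPM, for counting error only. Positions are from GENCODE and promoters from RefSeq, both on GRCh38. The alternatives were limma voom (limma 3.58.1), DESeq2 1.42.0 (its Wald test, or its size factors within edgeR), library sizes alone, other filters, the compared groups alone, a replicate block and each library left out. The models were run on simulated data with larger fold changes than the subunits had under tunicamycin and the same spread for all genes. Nothing about the subunit values is read from these runs. Figures were drawn with matplotlib 3.10.9.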

Additional observations from a re-analysis of the deposited data

Results flagged for a closer look

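Some of the listed genes moved one way in every library of one comparison and the opposite way in every library of another. These differences were not tested. Of all genes 23.4% were higher in every tunicamycin library at 4 h and 24.1% lower in every one at 24 h in OCI-AML3 cells. In HEK293T cells 23.5% were higher in every one. The share of all genes with opposite directions was not counted, so nothing is read from these cases. In OCI-AML3 cells EXOSC10 was higher in all tunicamycin libraries at 4 h (log2 fold change 0.13) and lower in all at 24 h (-0.28). The same was seen for EDC3, a decapping enhancer (0.25 at 4 h and -0.25 at 24 h), for DIS3L2, a cytoplasmic exonuclease that acts without the exosome (0.21 and -0.21), and for the head-to-head neighbours ZDHHC16 (0.17 and -0.16) and BCKDHA (0.28 and -0.38). BCKDHA was also higher in all HEK293T libraries with tunicamycin (0.21) while it was lower in all OCI-AML3 libraries at 24 h (-0.38). EDC3 and DIS3L2 passed the edgeR test at 4 h, but lost the call in 5 and 7 of 29 alternatives (adjusted p up to 0.11 and 0.38).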

How the results depend on the processing

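Single subunits had 441 to 3144 counts in a library, and how far depth limits their precision was not tested. Over 29 alternatives, the log2 fold changes of EXOSC8 under tunicamycin ran from 0.70 to 0.87 at 4 h in OCI-AML3 cells, from -0.10 to 0.03 at 24 h and from 0.50 to 0.58 in HEK293T cells. Of 870 values of all subunits under tunicamycin, 848 moved by less than the spread between replicates and 22 by more. With 1 library left out, those at 4 h ran from -0.19 to -0.06 for EXOSC3, -0.33 to -0.14 for EXOSC4, 0.01 to 0.27 for EXOSC5 and -0.21 to -0.10 for EXOSC7. At 24 h in OCI-AML3 cells EXOSC1 ran from -0.22 to -0.08 and EXOSC6 from 0.03 to 0.26, and in HEK293T cells EXOSC5 ran from -0.17 to -0.03. Of 870 values of the subunits in the comparisons without tunicamycin, 842 kept their direction and their side of the threshold, 10 lost the call, 11 gained it and 7 changed sign, and the cause was not tested. Between the cell lines EXOSC1 (-0.03, adjusted p = 0.78) depended on the processing. EXOSC1 was higher with library sizes alone (0.23, adjusted p = 0.013) and lower with genes kept at any count (-0.25, adjusted p = 0.028). EXOSC10 was at -0.03 with genes kept at any count. With genes kept at any count, DIS3L (-0.09) and C1D (-0.02) between the lines and ENSG00000255224 (-0.03) and ZDHHC3 (-0.01) under tunicamycin at 24 h in OCI-AML3 cells also changed sign. With 1 library left out, EXOSC8 ran from -0.13 to 0.04 and EXOSC9 from -0.10 to 0.04 in DMSO at 4 h against untreated cells, EXOSC6 from -0.23 to 0 in DMSO at 24 h against 4 h, and EXOSC1 from -0.09 to 0.01 between the lines. Likewise ZDHHC3 ran from -0.05 to 0.05 and ENSG00000226849, which shares exon bases with EXOSC10, from -0.71 to 0.12 at 4 h, ENSG00000255224 from -0.17 to 0.25 and DCAF10, which shares exon bases with EXOSC3, from -0.01 to 0.17 at 24 h, and ENSG00000255224 from -0.20 to 0.13 in HEK293T cells.

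Counts of subunits under tunicamycin are a description, from which nothing is read. That of 1 subunit lower at 4 h was 3 with library sizes alone and 2 with genes kept at any count. That of 4 lower in HEK293T cells was 2 with genes kept at any count. Between 4 h and 24 h in DMSO, 2 subunits were higher with DESeq2, 2 with genes kept at any count and 2 with the replicate block, and 5 were lower with library sizes alone. Between the lines 2 were higher with genes kept at any count, where TMM scaled 31899 genes. With the compared groups alone, 6 decay genes rose and 7 fell at 24 h in OCI-AML3 cells and 10 rose in HEK293T cells. With 1 library left out, subunits at 4 h numbered 2 to 4 higher and 1 to 2 lower, at 24 h 0 to 1 higher and 5 to 7 lower, and in HEK293T cells 1 to 2 higher and 2 to 4 lower. Without tunicamycin they numbered 1 to 3 higher and 3 to 4 lower between the times, and 5 to 6 higher and 2 to 3 lower between the lines. Decay genes numbered 7 to 10 higher and 2 to 5 lower at 4 h, 8 to 11 and 7 to 12 at 24 h, and 3 to 5 and 4 to 6 in HEK293T cells. A count moved by over 1.5 times without DMSO 4 h replicates 1, 2 or 3, DMSO 24 h replicates 2 or 3 or tunicamycin 24 h replicates 2 or 3 of OCI-AML3, and without DMSO replicates 1 or 2 or tunicamycin replicate 1 of HEK293T. EXOSC8 ranked 6 per length with the canonical transcript, and 1 of the 5 genes most like it was shared with the Spearman list and 1 with the list over the 15 OCI-AML3 libraries.

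Replicate numbers shared by the groups did not pair the libraries: correlations of same-numbered libraries ran from -0.14 to 0.20, and every library correlated best with its own number only in HEK293T cells with and without tunicamycin. With the replicate block the only call that changed among the subunits in the comparisons without tunicamycin was EXOSC5 in DMSO at 24 h against 4 h (0.29, adjusted p = 0.047).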

Other observations

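The exosome's own nuclease and cofactors also differed between culture times and between lines, with the edgeR quasi-likelihood test. Between 4 h and 24 h in DMSO all 4 genes of this list fell in OCI-AML3 cells: MPHOSPH6 (log2 fold change -0.53, adjusted p = 0.00019), DIS3 (-0.46, adjusted p = 0.00059), C1D (-0.27, adjusted p = 0.017) and DIS3L (-0.22, adjusted p = 0.031). DIS3 and MPHOSPH6 passed under all 29 alternatives, whereas the call was lost in 3 of them for C1D and in 9 for DIS3L. Of the 40 related decay genes 3 rose and 18 fell between these times, beside 20.9% and 21.7% of all genes. The count that fell ran from 11 to 22 over the alternatives. The count that rose was 1 without DMSO 24 h replicate 3, with library sizes alone, with genes kept at any count and with the compared groups alone.

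Between the lines, DIS3 was at 227, 222 and 241 CPM in HEK293T cells and 57.5, 51.7 and 46.7 CPM in OCI-AML3 cells, both with DMSO for 24 h (log2 fold change 2.15, adjusted p = 1.2e-15). MPHOSPH6 was higher in HEK293T cells too (43.5 against 13.2 CPM, 1.71, adjusted p = 5.7e-14). C1D was higher by 0.20 (adjusted p = 0.038), a call lost in 10 alternatives and with the sign changed in 1, and DIS3L did not pass (0.12, adjusted p = 0.16). DIS3L passed with library sizes alone (0.38, adjusted p = 2e-04) and without DMSO 24 h replicate 3 of OCI-AML3 (0.20, adjusted p = 0.028). Of the 40 decay genes 21 were higher and 11 lower, beside 41.9% and 41.3% of all genes. Over the alternatives these counts ran from 14 to 27 and from 5 to 14, and the lower count was 5 with library sizes alone.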
